A study of Mus musculus with 16 samples.

Results

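Conventional type 1 dendritic cell (cDC1) genes were followed across the macrophage preparations of lymph nodes from tumor-bearing mice. The 10 genes were Clec9a, Xcr1, Flt3, Cd207, Tlr11, Batf3, Irf8, Zbtb46, Wdfy4 and Naaa. They were chosen by name as a cDC1 list, with earlier results of these data known, and matched by Ensembl identifier among 55421 gene rows. All 10 passed the filter on low counts, which left 21085 genes to test. RNA was sequenced from subcapsular sinus macrophages (SSMs) and medullary sinus macrophages (MSMs) of tumor-draining (tdLN) and non-draining (ndLN) lymph nodes, with 2 libraries in each of the 4 groups. All mice were C57B/6 males carrying MOC2, a squamous carcinoma line, of which 500000 cells had been placed in the skin of the flank beside the inguinal node 2 weeks earlier. The ndLN therefore also came from animals with a tumor, and no group from tumor-free mice was analysed here. Each library pooled nodes of 2 mice, either 2 tdLN or 6 ndLN (the opposite inguinal, axillary and brachial nodes), and held the RNA of about 10000 sorted cells. Both subsets were sorted as 7AAD-, CD45+, CD3-, B220-, Ly6G-, CD11b+ and CD169+ cells. SSMs were taken as CD11c- with low side scatter and MSMs as CD11c+ with high side scatter.

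cDC1s are the dendritic cells best known for taking up dying cells and presenting their antigens to CD8 T cells. Their development depends on the transcription factors IRF8 and BATF3, and on the cytokine receptor FLT3. CLEC9A recognises exposed actin of dead cells, XCR1 is the receptor for the chemokine XCL1 and WDFY4 is needed for cross-presentation of cell-associated antigen. Conventional dendritic cells of lymph nodes carry CD11c, the integrin that separated the SSM from the MSM gate.

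BATF3 binds DNA with JUN proteins at AP-1 sites and, together with IRF8, at composite sites in which an AP-1 element lies next to an interferon regulatory factor element. Promoter windows from RefSeq (GRCm38.p6), each 300 bases from 250 before to 50 after a start site, were found for all 10 genes (11 windows, as Irf8 has 2 start sites). They were searched on both strands for 5 motifs, in which N is any base. They were GGAA and GAAA with 2 bases between them (the ETS and IRF composite, EICE), GAAA repeated after 2 bases (ISRE-like), TGANTCA (AP-1), TGANTCA and GAAA with 4 bases between them (the spaced AP-1 and IRF composite, AICE) and GAAATGA (short AICE). The 4 windows that held any match are shown, on the strand of the gene, with the matched bases in capitals, since Clec9a, Cd207 and Tlr11 are among the genes that differed most between the subsets and Zbtb46 is the gene that differed least in ndLN.
Clec9a, chr6:129408612-129408911 (+): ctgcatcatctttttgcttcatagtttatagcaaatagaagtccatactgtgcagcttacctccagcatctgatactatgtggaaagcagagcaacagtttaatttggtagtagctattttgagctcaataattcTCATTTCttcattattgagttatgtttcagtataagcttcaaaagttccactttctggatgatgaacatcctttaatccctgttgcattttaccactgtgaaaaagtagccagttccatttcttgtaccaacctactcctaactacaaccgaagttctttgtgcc
Cd207, chr6:83677808-83678107 (-): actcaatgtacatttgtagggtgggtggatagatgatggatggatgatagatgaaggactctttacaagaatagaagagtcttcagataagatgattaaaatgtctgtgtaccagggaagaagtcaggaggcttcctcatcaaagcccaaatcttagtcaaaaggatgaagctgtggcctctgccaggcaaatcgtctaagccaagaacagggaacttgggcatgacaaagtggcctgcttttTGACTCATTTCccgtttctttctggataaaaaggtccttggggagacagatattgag
Zbtb46, chr2:181424339-181424638 (-): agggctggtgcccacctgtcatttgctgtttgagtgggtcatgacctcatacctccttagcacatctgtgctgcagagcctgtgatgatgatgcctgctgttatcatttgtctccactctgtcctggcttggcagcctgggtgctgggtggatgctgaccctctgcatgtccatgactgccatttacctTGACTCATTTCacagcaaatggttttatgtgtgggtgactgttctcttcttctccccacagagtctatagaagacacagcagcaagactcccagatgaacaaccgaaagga
Tlr11, chr14:50357664-50357963 (+): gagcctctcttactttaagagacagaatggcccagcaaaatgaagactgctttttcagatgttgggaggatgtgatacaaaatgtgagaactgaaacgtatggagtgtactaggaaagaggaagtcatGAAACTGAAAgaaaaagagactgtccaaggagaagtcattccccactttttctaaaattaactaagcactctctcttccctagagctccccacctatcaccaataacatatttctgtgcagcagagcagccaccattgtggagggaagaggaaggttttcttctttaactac
The Clec9a, Cd207 and Tlr11 windows lie at the 5' end of the gene in GENCODE M21. The Zbtb46 window does not, as its annotated start lies 35038 bases inside the gene, at the first base of an exon that longer transcripts use internally, so it need not be the promoter in use. The AP-1 letters began 61 bases before that annotated start in Zbtb46 and 7 bases before the start of Cd207, and 7.808% of all 32851 promoter windows held them. Short AICE letters join GAAA to only the TGA of the AP-1 letters, and the Clec9a window held no full AP-1 match. They were present in Clec9a, Cd207 and Zbtb46 and in 5.449% of all windows. In Cd207 and Zbtb46 they overlap the AP-1 match, as the unbroken run TGACTCATTTC. This joined run, with any base at the middle of the AP-1 letters, was looked up after the matches had been seen and was held by 41 windows, or 0.125%. The ISRE-like match in Tlr11 is of a kind held by 3.443% of windows. EICE and spaced AICE letters, held by 2.715% and 0.119% of all windows, were in none of the 11.

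Transcripts of the sorting markers were read first. Levels are given as CPM, the counts per 1000000 counts of a library, scaled by edgeR's trimmed mean of M values (TMM) so that libraries can be compared. Itgax, which encodes CD11c, lay between 63.6 and 149 CPM in the 4 SSM libraries and between 316 and 418 CPM in the 4 MSM libraries, in the direction of the gate. Siglec1, which encodes CD169, lay between 8.47 and 70.0 CPM in SSMs but between 0.795 and 5.96 CPM in MSMs. Itgam, which encodes CD11b, lay between 54.6 and 124 CPM in SSMs and between 9.64 and 20.4 CPM in MSMs. The transcripts of these defining macrophage markers were thus low in libraries sorted as CD169+ and CD11b+ MSMs. The libraries held between 42972328 and 48130352 counts, and the floor of 3 counts corresponds to between 0.0552 and 0.0769 CPM.

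The cDC1 genes were much higher in MSMs than in SSMs. In ndLN, 9 of the 10 were lower in SSMs at an adjusted p-value under 0.01 (quasi-likelihood test in edgeR, Benjamini-Hochberg adjustment over all genes tested), against 6.65% of all genes, and none was higher, against 7.33%. In tdLN, all 10 were lower in SSMs, against 3.82% of all genes, and none was higher, against 5.55%. These counts are a description, since the list was chosen with earlier results of these data known. The paper had already named Cd207 and Clec9a among the genes highest in MSMs of ndLN. The median log2 fold change of the 10 genes was -4.55 in ndLN and -4.05 in tdLN, where the medians over all genes tested were 0.09 and 0.02. All 4 SSM libraries lay below all 4 MSM libraries for 9 of the genes, every one but Zbtb46, and 12.9% of all genes had that order. Because these are bulk samples, fewer cells of a type and less RNA per cell cannot be told apart.

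**Figure D1:**
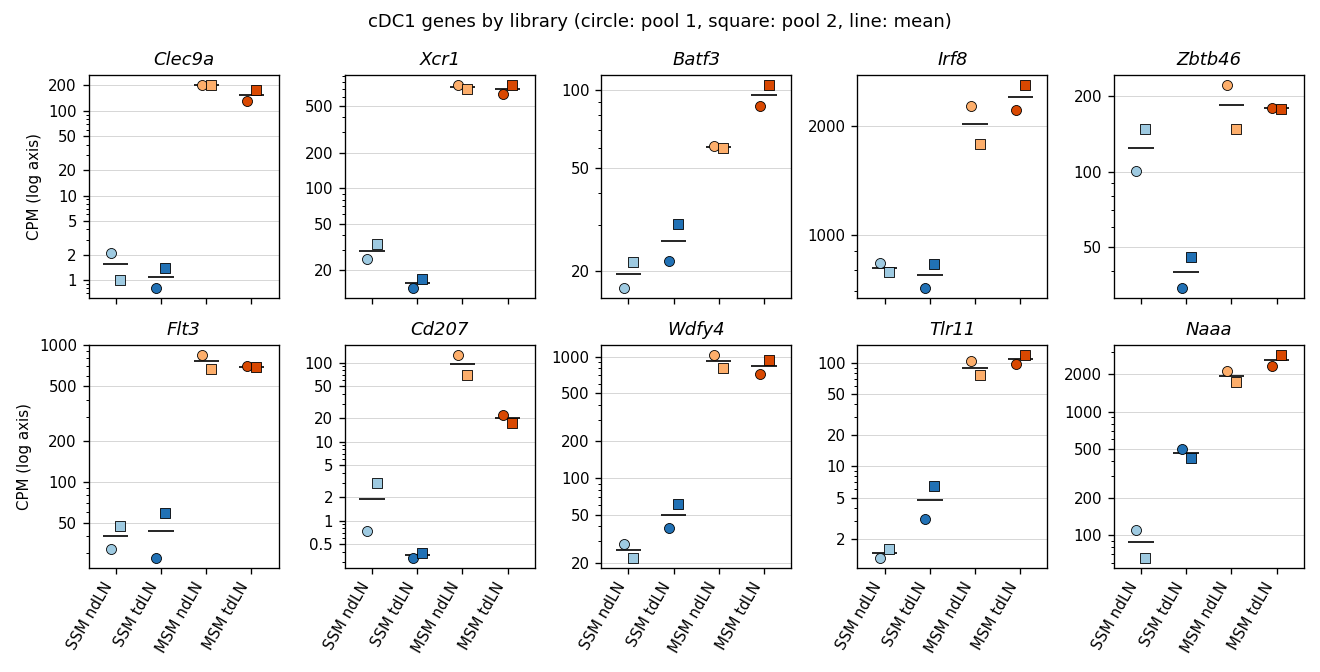
Level of each cDC1 gene in CPM (log axis, a different range in each panel) in the 2 libraries of each group, with circles for pool 1, squares for pool 2 and a line at the mean. SSM libraries (blue) lie below MSM libraries (orange) in every panel except Zbtb46, where the second SSM and MSM libraries of ndLN meet at 148.5 and 148.4 CPM.

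Among the surface receptors, Clec9a (chromosome 6, 129408862 to 129424763) showed the widest gap. It measured 2.08 and 1.01 CPM in SSMs of ndLN, 0.807 and 1.38 CPM in SSMs of tdLN, 200.1 and 203 CPM in MSMs of ndLN and 132 and 179 CPM in MSMs of tdLN. The lowest MSM library was 63.7 times the highest SSM library. The log2 fold change, SSM over MSM, was -7.00 ± 0.32 (SE) in ndLN (adjusted p = 1.85e-05 by edgeR) and -7.15 ± 0.34 in tdLN (adjusted p = 4.78e-05). Of the exonic bases of Clec9a, 5.59% overlap Clec1b, and whether the counting used strand is not given in the sources used here.

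Xcr1 (chromosome 9, 123852315 to 123862029) was the chemokine receptor of the list. Its level was 24.9 and 33.6 CPM in SSMs of ndLN, 14.2 and 16.8 CPM in SSMs of tdLN, 752 and 701 CPM in MSMs of ndLN and 630.4 and 752 CPM in MSMs of tdLN. The subsets did not overlap in either node. The log2 fold change was -4.65 ± 0.17 in ndLN (edgeR adjusted p = 1.45e-05) and -5.48 ± 0.18 in tdLN (adjusted p = 2.31e-05). Per length, in TPM (reads per base of exon, set to a common sum in each library), the ratio of Xcr1 to Clec9a was between 8.86 and 24.6 in SSM libraries and between 2.56 and 3.52 in MSM libraries, so the subsets did not overlap in this ratio.

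Flt3, the receptor for the growth factor that sustains dendritic cells, measured 32.3 and 47.7 CPM in SSMs of ndLN, 27.9 and 59.3 CPM in SSMs of tdLN, 852 and 672 CPM in MSMs of ndLN and 701 and 693 CPM in MSMs of tdLN. The difference between subsets was -4.29 ± 0.34 (log2) in ndLN and -4.05 ± 0.34 in tdLN (edgeR adjusted p = 1.31e-04 and 2.65e-04). The endosomal receptor gene Tlr11, whose product senses profilin of protozoan parasites, measured 1.31 and 1.60 CPM in SSMs of ndLN and 3.09 and 6.42 CPM in SSMs of tdLN. In MSMs it stood at 104 and 76.1 CPM in ndLN and at 98.7 and 120.5 CPM in tdLN. Its log2 fold change was -5.97 ± 0.38 in ndLN and -4.53 ± 0.33 in tdLN (edgeR adjusted p = 5.59e-05 and 1.67e-04). The few CPM in SSMs of ndLN were above the floor of 3 counts in each library.

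Cd207 encodes langerin, a lectin of Langerhans cells and of a part of the cDC1s. Its level was 126 and 68.9 CPM in MSMs of ndLN, 21.9 and 17.4 CPM in MSMs of tdLN, 0.736 and 2.99 CPM in SSMs of ndLN and 0.336 and 0.390 CPM in SSMs of tdLN. The order of the 4 groups was MSM ndLN, MSM tdLN, SSM ndLN and SSM tdLN, and no neighbours overlapped. The SSM part of that order rests on 40 and 148 counts in ndLN and 15 and 17 counts in tdLN. Both tdLN libraries lay below both ndLN libraries for 26.3% of all genes in SSMs and 18.1% in MSMs. Between the subsets the log2 fold change was -5.69 ± 0.49 in ndLN and -5.75 ± 0.70 in tdLN (edgeR adjusted p = 1.73e-04 and 0.00125).

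The transcription factor genes had the smallest differences. Batf3 measured 17.2 and 21.7 CPM in SSMs of ndLN, 21.8 and 30.4 CPM in SSMs of tdLN, 60.6 and 59.9 CPM in MSMs of ndLN and 87.2 and 105 CPM in MSMs of tdLN. Irf8, which macrophages, B cells and plasmacytoid dendritic cells also express, measured 833 and 787 CPM in SSMs of ndLN, 713 and 832 CPM in SSMs of tdLN, 2267 and 1783 CPM in MSMs of ndLN and 2223 and 2599.5 CPM in MSMs of tdLN. The lowest MSM library exceeded the highest SSM library 1.97 times for Batf3 and 2.14 times for Irf8. The log2 fold change of Batf3 was -1.64 ± 0.18 in ndLN and -1.89 ± 0.18 in tdLN (edgeR adjusted p = 5.82e-04 and 4.58e-04), and that of Irf8 was -1.32 ± 0.16 and -1.64 ± 0.16 (adjusted p = 8.50e-04 and 4.98e-04).

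Zbtb46, a transcription factor gene shared by all conventional dendritic cells, was the gene whose subsets overlapped. In SSMs it stood at 101 and 148.5 CPM in ndLN and at 34.3 and 45.6 CPM in tdLN. In MSMs it stood at 222 and 148.4 CPM in ndLN and at 179 and 178 CPM in tdLN. In ndLN the subsets overlapped and the difference did not pass the test (log2 fold change -0.59 ± 0.26, edgeR adjusted p = 0.155). In tdLN they were apart, with a log2 fold change of -2.17 ± 0.27 (edgeR adjusted p = 0.0016).

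Wdfy4 and Naaa carry out work inside the cell. Wdfy4 measured 28.8 and 22.0 CPM in SSMs of ndLN, 39.0 and 61.0 CPM in SSMs of tdLN, 1035 and 806 CPM in MSMs of ndLN and 721 and 936 CPM in MSMs of tdLN, with log2 fold changes of -5.18 ± 0.30 in ndLN and -4.05 ± 0.28 in tdLN (edgeR adjusted p = 3.58e-05 and 1.36e-04). Naaa, a lysosomal amidase that breaks down lipid amides, had the highest level per length of the 10 genes in MSMs. It measured 111 and 65.8 CPM in SSMs of ndLN and 495 and 423 CPM in SSMs of tdLN, against 2112 and 1723 CPM in MSMs of ndLN and 2332 and 2872 CPM in MSMs of tdLN. The log2 fold change was -4.45 ± 0.25 in ndLN and -2.53 ± 0.23 in tdLN (edgeR adjusted p = 3.36e-05 and 3.55e-04). The plot of subset differences places each gene's 2 values side by side.

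**Figure D2:**
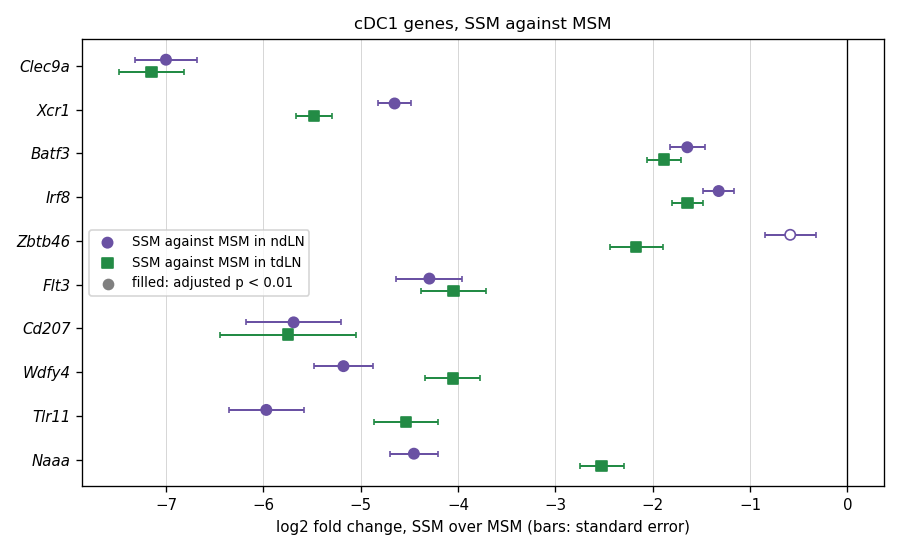
Log2 fold change, SSM over MSM, of each cDC1 gene in ndLN (purple circles) and tdLN (green squares), with bars for the standard error and filled symbols for an adjusted p-value under 0.01. Values run from -7.15 for Clec9a in tdLN to -0.59 for Zbtb46 in ndLN, the only open symbol.

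In ndLN, 8 of the 10 genes passed without the second SSM library of ndLN, as Irf8 was lost (adjusted p = 0.0111), and 9 passed with any other library left out. With only the 4 ndLN libraries in the fit, Batf3 and Irf8 were lost there (adjusted p = 0.0140 and 0.0199). In tdLN, 5 passed without the first SSM library, as Batf3, Irf8, Zbtb46, Cd207 and Naaa were lost with adjusted p-values from 0.0104 to 0.0322 and unchanged sign. From 7 to 8 passed in tdLN without the second SSM library or either MSM library of tdLN, where Zbtb46 and Cd207 were lost each time and Irf8 or Naaa in some (adjusted p from 0.0109 to 0.0235). Clec9a, Xcr1, Flt3, Wdfy4 and Tlr11 passed in both nodes with any 1 library left out.

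The order of the genes was not the same in the subsets when levels were set per length. In MSMs, by mean TPM, Naaa came first, with 1296 to 2019 TPM over the 4 libraries, followed by Irf8 (707 to 964), Xcr1 (395 to 448), Flt3 (293 to 366) and Wdfy4 (191 to 260.2). Clec9a, Batf3, Cd207, Tlr11 and Zbtb46 followed, with Zbtb46 last at 48.8 to 69.1 TPM. In SSMs, Irf8 was first at 285 to 418 TPM and Naaa second at 66.1 to 375 TPM. Batf3 at 36.9 to 54.3 TPM and Zbtb46 at 11.4 to 65.3 TPM came next, and Clec9a was last at 0.691 to 2.17 TPM. Neighbours among the first 5 in MSMs did not overlap, but the ranges of Naaa and Irf8 overlapped in SSMs, as did those of Batf3 and Zbtb46.

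Whether these genes differed between nodes that drained the tumor and nodes that did not was asked within each subset. The tdLN pools held 2 nodes and the ndLN pools 6, from the opposite inguinal, axillary and brachial sites. Drainage therefore cannot be told apart from node site, side or number, here or in the interaction below. In SSMs, Naaa was higher in tdLN than in ndLN, by 2.39 ± 0.23 on the log2 scale (edgeR adjusted p = 0.00197), and higher in both pools. It was the only one of the 10 genes past the threshold, where 2.03% of all genes were higher and 1.13% lower. The median log2 fold change of the 10 was 0.02, and that of all genes was -0.04. The call was not kept without the second SSM library of ndLN (adjusted p = 0.0175), without the first or second SSM library of tdLN (0.0426 and 0.0419) or with the 4 SSM libraries alone (0.0297), with a log2 fold change of at least 2.08 in each.

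The remaining cDC1 genes split between the directions in SSMs. All tdLN libraries were lower than all ndLN libraries for Xcr1, Zbtb46 and Cd207, an order that 26.3% of all genes had, and all were higher for Batf3, Wdfy4, Tlr11 and Naaa, an order that 25.6% had. Zbtb46 and Xcr1 were near the threshold, with log2 fold changes of -1.64 ± 0.27 (edgeR adjusted p = 0.0118) and -0.91 ± 0.17 (adjusted p = 0.017). Zbtb46 passed without the pool term (adjusted p = 0.00618). Wdfy4 and Tlr11 had values of 0.96 ± 0.27 and 1.70 ± 0.48 (edgeR adjusted p = 0.0706 and 0.07). Cd207 had -2.34 ± 1.02 (adjusted p = 0.224), Batf3 0.42 ± 0.18 (0.224), Clec9a -0.53 ± 0.52 (0.604), Flt3 0.10 ± 0.31 (0.895) and Irf8 -0.07 ± 0.15 (0.848). DESeq2 called 6 of the 10 genes in this comparison, namely Xcr1, Zbtb46, Cd207, Wdfy4, Tlr11 and Naaa, against 14.1% of the 14544 genes that it gave an adjusted p-value. The Cd207 value moved to -0.74 without the second SSM library of ndLN and to -3.38 without the first, and it was -1.64 on lane 3 alone and -3.42 on lane 4 alone.

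In MSMs, none of the 10 genes passed the test between tdLN and ndLN by edgeR, against 0.0237% of all genes (5 genes). At an unadjusted p-value under 0.05 there were 2, Cd207 and Batf3, against 11.9% of all genes, and DESeq2 called 1, Cd207, against 3.84% of the genes it adjusted. Cd207 had a log2 fold change of -2.28 ± 0.37 (edgeR adjusted p = 0.059, and 6.35e-04 by DESeq2), with both tdLN libraries below both ndLN libraries. Batf3 had 0.66 ± 0.17 (edgeR adjusted p = 0.188), with both tdLN libraries above. Of the 10 genes, 2 (Clec9a and Cd207) were lower in both tdLN libraries, against 18.1% of all genes, and 2 (Batf3 and Naaa) were higher, against 20.4%. For Xcr1, Zbtb46, Flt3 and Wdfy4 the log2 fold change lay between -0.16 and -0.06, with standard errors between 0.15 and 0.29. The remaining values were 0.46 ± 0.21 for Naaa, 0.27 ± 0.26 for Tlr11, 0.25 ± 0.15 for Irf8 and -0.38 ± 0.21 for Clec9a.

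**Figure D3:**
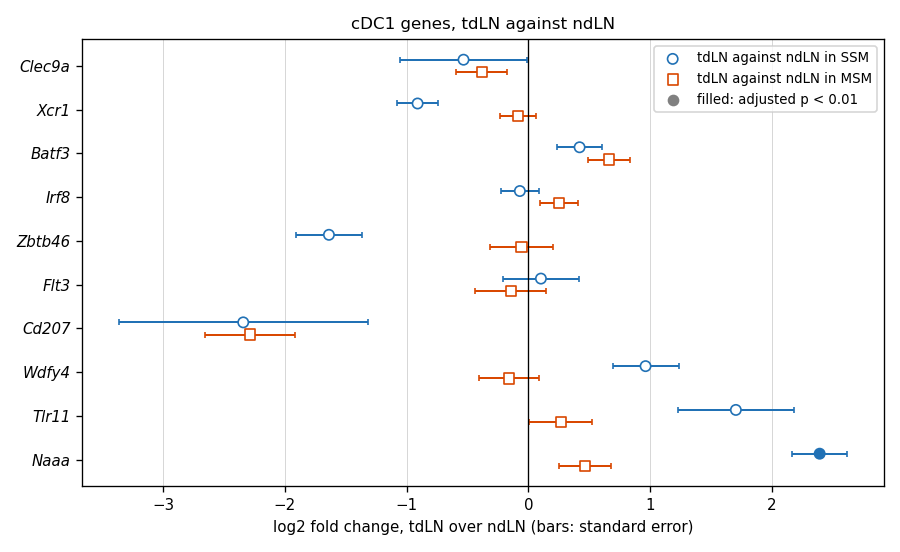
Log2 fold change, tdLN over ndLN, of each cDC1 gene in SSMs (blue circles) and MSMs (orange squares), with bars for the standard error and filled symbols for an adjusted p-value under 0.01. Only Naaa in SSMs is filled, at 2.39, and Cd207 lies at -2.34 in SSMs, with a standard error of 1.02, and at -2.28 in MSMs, with one of 0.37.

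The difference between these node effects was tested by the interaction of subset and node, and none of the 10 genes passed by edgeR, against 0.0379% of all genes (8 genes). At an unadjusted p-value under 0.05 there were 5, against 12.3% of all genes, and DESeq2 called 2, Zbtb46 and Naaa, against 5.05% of the genes it adjusted. The effect in SSMs minus that in MSMs was 1.93 ± 0.31 (log2) for Naaa (edgeR adjusted p = 0.0389), -1.58 ± 0.37 for Zbtb46 (adjusted p = 0.121), 1.44 ± 0.55 for Tlr11 (0.333), 1.12 ± 0.36 for Wdfy4 (0.245) and -0.83 ± 0.22 for Xcr1 (0.163). The node effects of Cd207 differed by -0.06 ± 1.07, where the standard error exceeds the difference many times over.

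A further 22 genes associated with cDC1s were read beside the 10. In ndLN 16 of the 22 were lower in SSMs, against 6.65% of all genes, and none higher, against 7.33%. Their median log2 fold change there was -3.64. In tdLN 18 were lower, against 3.82% of all genes, with a median of -2.92. Cadm1, an adhesion molecule of cDC1s, had log2 fold changes of -6.38 ± 0.24 and -6.46 ± 0.25. Ppt1, a lysosomal thioesterase and the list's most abundant gene, measured 192 and 166 CPM in SSMs of ndLN, 525 and 407 CPM in SSMs of tdLN and between 3809 and 5769 CPM in MSMs. Id2, a transcriptional regulator that T and NK cells express too, did not pass in ndLN (-0.29 ± 0.18, edgeR adjusted p = 0.302) and was lower in SSMs of tdLN (-1.37 ± 0.19, adjusted p = 0.00229).

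Of these 22 genes, Nfil3, Sec22b and Itgb8 passed in neither node, Bcl6 passed in ndLN alone, and Itgae, Id2 and Cxcr3 passed in tdLN alone. Between tdLN and ndLN in SSMs, Rab7b (2.17 ± 0.18, edgeR adjusted p = 0.00158) and Ppt1 (1.37 ± 0.14, adjusted p = 0.0024), both of which act in lysosomes or late endosomes, were higher. Cd36, a scavenger receptor, was lower (-1.25 ± 0.18, adjusted p = 0.00682). Nearest to the threshold in MSMs were Cd36 (-1.76 ± 0.15, edgeR adjusted p = 0.012) and Itgae, the integrin CD103 (1.01 ± 0.13, adjusted p = 0.0298). In the interaction they were Rab7b (2.82 ± 0.24, adjusted p = 0.011), Itgae (-1.65 ± 0.18, adjusted p = 0.0176) and Ppt1 (1.73 ± 0.20, adjusted p = 0.0186).

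**Figure D4:**
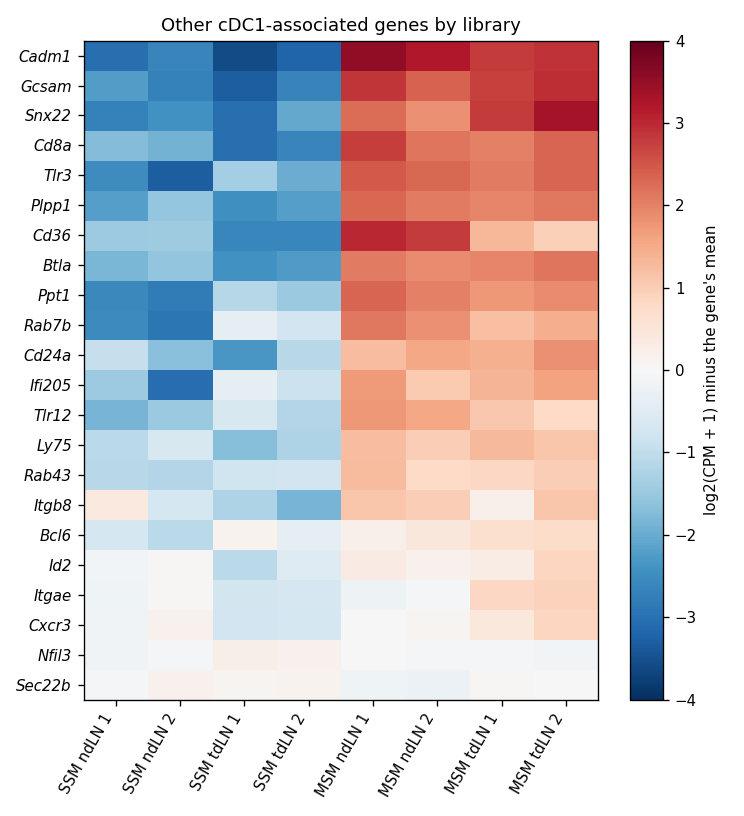
Each of the 22 other cDC1-associated genes (rows) in the 8 libraries (columns), as log2(CPM + 1) minus the gene's own mean, from blue (low) to red (high). Rows are sorted by the difference between SSMs and MSMs, with Cadm1 at the top and Nfil3 and Sec22b, which passed in neither node, at the bottom.

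The genes whose profile over the 8 libraries lay nearest to that of Clec9a and of Xcr1 were sought among 12268 genes with a mean of at least 1 CPM. Distance was the root mean square difference of log2(CPM + 1) after centring each gene. Cadm1 was nearest to Clec9a (0.302), followed by Gcsam (0.507), Fam149a (0.515), Gpr141b (0.545) and Notch4 (0.612). Dbn1 was nearest to Xcr1 (0.153), followed by Cd8a (0.289), which cDC1s resident in lymphoid organs carry, St3gal5 (0.314), Ccser1 (0.341) and H2-Ob (0.358). Among the cDC1 genes, Xcr1 was the eighth nearest to Clec9a, whereas Batf3, Irf8 and Zbtb46 ranked 471, 597 and 815.

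Markers of other cells moved with the subsets too. The sort had excluded CD3+ and B220+ cells, and its gate named no NK cell marker. Summed over the 10 cDC1 genes, the level was between 1132 and 1476 CPM in SSM libraries and between 6242 and 8453 CPM in MSM libraries. T and NK cell genes ran the other way, with 1605 to 2716 CPM in SSMs and 31.8 to 204 CPM in MSMs. All 10 were higher in SSMs of both nodes, against 7.33% of all genes in ndLN and 5.55% in tdLN. Cd3e, which encodes a chain of CD3, had log2 fold changes of 3.36 ± 0.20 in ndLN and 4.95 ± 0.25 in tdLN. Prf1, the gene of perforin, had log2 fold changes of 5.47 ± 0.26 and 7.42 ± 0.32, and Gzmb, the gene of granzyme B, had 4.71 ± 0.31 and 7.20 ± 0.36. The part of these cells in the cDC1 results was not tested.

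Macrophage genes summed to between 1022 and 4516 CPM in SSMs and between 753 and 1301 CPM in MSMs. Csf1r, Siglec1 and Fcgr1 were higher in SSMs of both nodes, and Mertk and Cd68 were lower in SSMs of ndLN. Csf1r, the receptor for macrophage colony-stimulating factor, had log2 fold changes of 1.59 ± 0.22 in ndLN and 2.51 ± 0.23 in tdLN. Cd68, a lysosomal glycoprotein, had -1.06 ± 0.15 in ndLN (edgeR adjusted p = 0.00206) and 0.61 ± 0.15 in tdLN (adjusted p = 0.0306). Between tdLN and ndLN in SSMs, 8 of the 12 macrophage genes were higher, Csf1r and Cd68 among them, against 2.03% of all genes. Naaa, Rab7b and Ppt1 were higher in the same comparison. The part of macrophages in that result was not tested.

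Among other dendritic cells, genes of maturation or migration summed to between 3538 and 5178 CPM in SSMs and between 10023 and 10766 CPM in MSMs. Of 12, 6 were lower in SSMs of ndLN, against 6.65% of all genes, and 1, Ccl5, was higher, against 7.33%. In tdLN 9 were lower in SSMs, against 3.82% of all genes. Cd83, an activation marker, had log2 fold changes of -2.18 ± 0.18 and -1.36 ± 0.18, and Ccr7, which guides migration, had -0.12 ± 0.18 (edgeR adjusted p = 0.696) in ndLN and -1.50 ± 0.19 (adjusted p = 0.00152) in tdLN. In SSMs, Cd86 and Cd40 were higher in tdLN than in ndLN, against 2.03% of all genes.

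The summed level of the list for the second type of conventional dendritic cells (cDC2) overlapped between subsets, at 565 to 1801 CPM in SSMs and 884 to 1385 CPM in MSMs. Much of that sum was Sirpa, the list's most abundant gene. Sirpa measured 368 and 293 CPM in SSMs of ndLN, 1297 and 1051.5 CPM in SSMs of tdLN and between 230 and 504 CPM in MSMs. The median log2 fold change of the 12 genes, SSM over MSM, was -1.67 in ndLN and -0.52 in tdLN. Of 12 genes, 5 were lower in SSMs of ndLN (Cd209a, Mgl2, Cd209d, Epcam and Cd1d1), against 6.65% of all genes. In tdLN, Cd209d and Epcam were lower and Sirpa, an inhibitory receptor of cDC2s and macrophages, was higher (1.53 ± 0.21, edgeR adjusted p = 0.00231). Of all genes, 3.82% were lower and 5.55% higher in SSMs of tdLN. Klf4 had 0.33 ± 0.23 and 0.66 ± 0.23 (adjusted p = 0.357 and 0.109). In SSMs, Clec10a, Mgl2 and Sirpa were higher in tdLN than in ndLN, against 2.03% of all genes.

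Plasmacytoid dendritic cell genes summed to between 181 and 307 CPM in SSMs and between 210.2 and 251 CPM in MSMs. Of 9 tested, Ccr9 was lower in SSMs of both nodes and Spib was lower in tdLN. Of all genes, 6.65% were lower in SSMs of ndLN and 3.82% in SSMs of tdLN. Bst2 (0.61 ± 0.26 and 0.90 ± 0.25) and Tcf4 (-0.47 ± 0.15 and 0.46 ± 0.15) did not pass. Klk1 and Cox6a2 stayed under 1 CPM in every library, and Ptprcap was listed at 0. B cell genes summed to between 119 and 202 CPM in SSMs and between 29.1 and 69.3 CPM in MSMs. Of 10, Blk, a B cell kinase that some T cells also use, was higher in SSMs of both nodes (4.51 ± 0.35 and 6.15 ± 0.43). Ralgps2 was higher in SSMs of ndLN (1.84 ± 0.33, edgeR adjusted p = 0.00625; tdLN 1.11 ± 0.39, adjusted p = 0.101), and Fcer2a was lower there. Over all genes, 7.33% were higher and 6.65% lower in SSMs of ndLN, and 5.55% higher and 3.82% lower in SSMs of tdLN. Pax5, a defining transcription factor gene of B cells, stayed under 1 CPM in all 8 libraries.

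**Figure D5:**
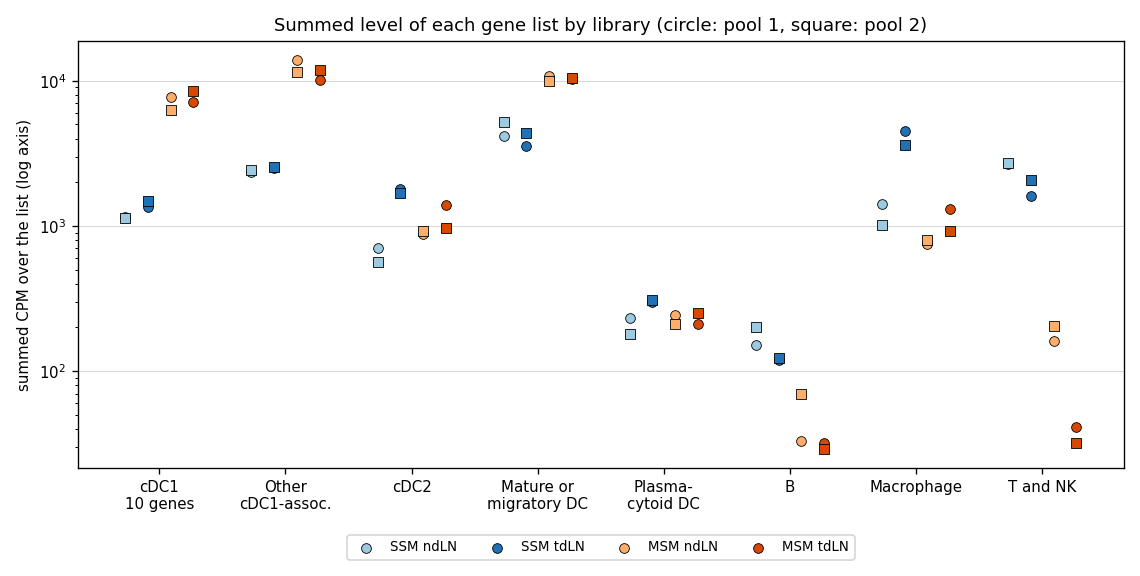
Summed CPM (log axis) of each gene list in the 8 libraries, with blue for SSMs, orange for MSMs, circles for pool 1 and squares for pool 2. Both cDC1 lists and the maturation list are higher in all 4 MSM libraries, and T and NK cell and B cell genes are higher in all 4 SSM libraries.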

How the data were processed

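The authors sorted the cells, prepared SMART-Seq v4 libraries, trimmed reads with Trimmomatic 0.36 after bcl2fastq 2.20.0.422, aligned them to mouse GRCm38 (mm10) with STAR 2.5.3a (versions from the submitters' processing notes) and deposited raw read counts per gene, unfiltered, for 16 columns (8 libraries on lanes 3 and 4). The strand setting and annotation release are not given in the sources used here, and GENCODE M21, which matched 55240 identifiers, supplied symbols and coordinates. An added 2 rows for other sequences, with 6 counts (1.66e-06% of all), were left out.

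The lanes of a library agreed within sampling noise (chi-square per degree of freedom between 0.955 and 1.015, against 29.3 or more between libraries of a group) and were summed. Genes with at least 10 counts in total and detection in at least 2 columns were kept. Counts were scaled by TMM (factors between 0.902 and 1.15) and fitted over all 8 libraries with group and pool in edgeR 4.0.16 under R 4.3.3, with Benjamini-Hochberg adjustment and a threshold of 0.01. Counts were simulated from each gene's mean over all 8 libraries, with 200 of 21085 genes changed 4-fold in SSMs of ndLN. Testing SSMs against MSMs in ndLN recovered 146 of them, with 4 false calls. The 200 came from genes with higher counts and no other gene differed, so recovery at low counts or among many differences was not tried. The labels number 2 pools, whereas the study's methods count 4 and its sample matrix gives the lanes of 1 library separate pool numbers; lanes were taken as technical here, so n is 2 a group. Pool was a model term because the methods state that each pool gave all 4 kinds of sample. Same-numbered libraries' deviations correlated between -0.184 and 0.155. The p-values measure the spread left between libraries after group and pool were fitted, with its estimate shared in part across genes. The CPM floors reflect counting only, and the CPM ranges run from the lowest to the highest library. TPM used exonic lengths. Alternatives were no pool term, DESeq2 1.42.0, DESeq2's size factors, other filters, a threshold of 0.05, each lane alone, only the groups compared and each library left out.

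The 10 genes and the comparison lists were chosen with earlier results of these data known. Genes named are all 10, the 5 nearest profiles of Clec9a and Xcr1, the 2 most abundant genes of each list and genes that counts of 5 or fewer single out. Cadm1, Cd36, Itgae and Rab7b in further comparisons, and Cd3e, Pax5, Klk1 and Cox6a2, were named after their values were seen. Some single-gene results of the comparison lists are not reported here. Figures were drawn with matplotlib 3.10.9.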

Additional observations from a re-analysis of the deposited data

How the results depend on the processing

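Of 840 refits of a single gene's difference under an alternative, 782 kept both direction and side of the threshold, and 21 changed sign, none with an adjusted p-value under 0.05 by that refit. Between tdLN and ndLN in SSMs, where 1 cDC1 gene passed, 2 passed without the replicate block of pools (Zbtb46 gained), 6 by DESeq2, 3 at a threshold of 0.05, 2 on lane 3 alone, 3 on lane 4 alone, none (0) with only the libraries compared, and between 0 and 2 with a library left out. In MSMs DESeq2 called 1. In the interaction DESeq2 called 2 and the threshold of 0.05 gave 1. With a library left out, between 5 and 10 passed for SSMs against MSMs in tdLN and between 8 and 9 in ndLN. The block changed no other call of a cDC1 gene. The cause of these shifts was not tested, save that leaving out libraries leaves fewer degrees of freedom.

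The difference in node effects for Cd207 turned to 0.60 on lane 3 alone. With a library left out, 11 results changed sign. In SSMs, tdLN against ndLN, Clec9a ran from -1.06 to 0.23, Flt3 from -0.49 to 0.53 and Irf8 from -0.22 to 0.056. In MSMs, Xcr1 ran from -0.28 to 0.13, Zbtb46 from -0.46 to 0.44, Flt3 from -0.53 to 0.34, Wdfy4 from -0.45 to 0.14 and Tlr11 from -0.18 to 0.77. In the interaction, Clec9a ran from -0.67 to 0.61, Cd207 from -1.12 to 1.53 and Flt3 from -0.36 to 0.67.

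Over all genes, DESeq2 called 4481 and 3504 for the subsets in ndLN and tdLN (2948 and 1977 by edgeR), 2044 and 590 between nodes in SSMs and MSMs (666 and 5) and 735 in the interaction (8). The threshold of 0.05 gave 4937, 3534, 2034, 97 and 216 in the same order. Only the groups compared gave 967 for the subsets in ndLN and 0 between nodes in each subset. Without the block 9 passed between nodes in MSMs, single lanes gave 24 and 17 there and 25 and 29 in the interaction, and DESeq2's size factors gave 4 in the interaction. With a library left out the counts ran from 1143 to 2239, 512 to 1979, 2 to 353, 0 to 3 and 0 to 0. A lone library left in a group was assumed to vary like those of the other groups.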
